A study of Mus musculus with 6 samples.

Results

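The 10 genes described here are those of the mouse MHC class II presentation pathway, chosen by symbol from the 32285 genes of the deposited tables: Cd74, Ciita, H2-Aa, H2-Ab1, H2-Eb1, H2-DMa, H2-DMb1, H2-DMb2, H2-Oa and H2-Ob. All 10 were found, each as a single gene identifier, and their levels were followed in Langerhans cells, in the other immune cells and in keratinocytes of dorsal skin. The skin came from wildtype FVB males at postnatal days 55 to 57, whose hair was shaved and waxed (depilation) to start a new hair cycle, and was taken at 0 h, at 4 h and 16 h after waxing, and then after 2 d, 4 d and lastly 6 d. Each time point was 1 single-cell RNA-seq library in which the cells of 2 mice, processed separately, were mixed in equal numbers. The 6 libraries are therefore the replicates of any cell type, no time point has a replicate of its own, and single time points cannot be tested against each other.

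MHC class II molecules are pairs of an α and a β chain that carry peptides from the endosome to the cell surface, where CD4+ T cells read them. H2-Aa and H2-Ab1 encode the α and β chains of I-A, and H2-Eb1 encodes the β chain of I-E. Cd74 encodes the invariant chain, which holds the peptide groove closed during transport, and Ciita encodes the transactivator that switches the whole group on. H2-DMa pairs with H2-DMb1 or H2-DMb2 as DM, which exchanges the remnant of the invariant chain for peptide, while H2-Oa and H2-Ob form DO, which restrains DM. Langerhans cells are the resident antigen-presenting cells of the epidermis, and keratinocytes are known to make class II after exposure to interferon γ.

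In the mm10 annotation 8 of the 10 genes lie together on chromosome 17, from H2-Oa at 34092379 to 34095234 to H2-Eb1 at 34305867 to 34316674. Ciita lies apart from them on chromosome 16, at 10480014 to 10531064. The promoters of these genes share short motifs read by the class II enhanceosome, among them GATTGG of the Y box, bound by NF-Y, and, in part of them, AGCAAC of the X box. The 250 bases before the start were found in the RefSeq promoters (GRCm38.p6) for 7 of the 10 genes, as 8 promoters since H2-DMa has a pair of starts. Cd74, Ciita and H2-Ab1 had no entry. The last 110 bases before the start held GATTGG in 6 of these 7 genes, and the 6 are printed because they show where in the promoter the letters lie. GATTGG and AGCAAC are in capitals, and every sequence reads 5′ to 3′ on the strand of its gene.

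H2-Aa, chr17:34287824-34287933, minus strand: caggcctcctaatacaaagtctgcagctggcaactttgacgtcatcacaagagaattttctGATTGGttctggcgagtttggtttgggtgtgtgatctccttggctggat
H2-Eb1, chr17:34305757-34305866, plus strand: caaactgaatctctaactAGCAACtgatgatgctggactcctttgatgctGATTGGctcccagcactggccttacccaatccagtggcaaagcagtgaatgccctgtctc
H2-DMb1, chr17:34153081-34153190, plus strand: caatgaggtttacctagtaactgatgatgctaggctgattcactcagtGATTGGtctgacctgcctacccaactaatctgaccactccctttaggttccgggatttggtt
H2-DMb2, chr17:34145139-34145248, plus strand: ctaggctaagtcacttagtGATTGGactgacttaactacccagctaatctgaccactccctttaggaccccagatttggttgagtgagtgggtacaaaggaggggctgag
H2-Oa, chr17:34092269-34092378, plus strand: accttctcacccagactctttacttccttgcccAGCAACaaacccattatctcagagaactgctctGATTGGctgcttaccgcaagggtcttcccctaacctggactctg
H2-Ob, chr17:34238795-34238904, plus strand: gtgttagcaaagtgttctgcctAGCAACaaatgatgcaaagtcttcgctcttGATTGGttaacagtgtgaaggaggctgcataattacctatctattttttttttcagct

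GATTGG began at base -44 in H2-Oa, -49 in H2-Aa, -58 in H2-Ob, -60 in H2-Eb1, -62 in H2-DMb1 and -91 in H2-DMb2, counted from the start of transcription. In H2-Eb1, H2-Oa and H2-Ob the letters AGCAAC stood 32, 33 and 30 bases upstream of it. Of all 32851 promoters, 9.25% held GATTGG on either strand within the same 110 bases, 5.85% held AGCAAC, and 0.527% held both. H2-DMa held neither within 110 bases of its starts, although GATTGG occurred at -199 of the second start. These matches describe letters only.

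Across the libraries 50502 cells were analysed, 6520 to 11032 per library, with library totals of 72634390 to 112370376 UMIs (unique molecular identifiers, each a captured transcript) and median depths of 6032 to 10528 UMIs per cell. Cells were clustered without the 10 genes and named by marker genes, so that the levels of the 10 genes did not help to define a cell class. Doublets were scored with the 10 genes left in. Cd207, Ccr7, Krt5 and Krt14, whose levels are given below, were in the marker lists and stayed in the clustering. Their levels are therefore no independent evidence of what a class is. The clusters were rebuilt here, and their names may differ from those of the study. Langerhans-like cells numbered 748 (39, 156, 114, 232, 99 and 108 in time order) and carried Cd207, the langerin gene, in 98.8% of cells. T cell-like cells numbered 2426, of which 2214 were like dendritic epidermal T cells (DETC, the γδ T cells of mouse epidermis) and 212 were lymphocytes led by Icos and Il7r. Keratinocytes numbered 44428, among them 21999 of the interfollicular epidermis (IFE), 11052 of the upper follicle and 7770 of the outer bulge clusters, which also held inner root sheath and matrix cells. Levels are in CPM, which is the UMI count of a gene over all UMIs of the summed cells of a class, times 1e6. Each transcript is counted at its 3′ end, so CPM of different genes can be set side by side without a length correction. FVB mice carry another H2 haplotype than the reference genome, and its effect on the mapping of the polymorphic H2-Aa, H2-Ab1 and H2-Eb1 was not tested.

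Langerhans-like cells held the pathway at a level far above that of every other large class. The invariant chain Cd74 stood at 43784, 41044, 43382, 40610, 40086 and 47636 CPM from 0 h to 6 d. H2-Ab1 stood at 19157, 26493, 20289, 16383, 17798 and 20885 CPM, and H2-Aa at 13455, 14350, 12035, 11449, 8849.8 and 15460 CPM. The ranges of Cd74, H2-Ab1 and H2-Aa over the libraries did not overlap, in that order. H2-Eb1, the β chain of I-E, was lower, at 645, 819, 459, 387, 245 and 857 CPM. Of 3 other class II genes listed (H2-Ea, H2-Ea-ps and H2-Eb2) 0 could be tested. The α chain of I-E was therefore not followed, and H2-Eb1 RNA does not show that I-E is made. Together the 10 genes made up 7.97% of the UMIs of Langerhans-like cells, with 7.20 to 8.85% per library, and the quartiles over single cells were 6.94 and 9.08%.

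The peptide-exchange genes followed the I-A chains in level. H2-DMa stood at 1934, 1483, 2477, 2614, 2921 and 2178 CPM and H2-DMb1 at 549.6, 527, 855, 960.3, 1276 and 614 CPM. H2-DMb2 was at 317, 396, 613, 405, 459 and 549 CPM. The range of H2-DMa overlapped that of no other member, whereas those of H2-DMb1, H2-Eb1 and H2-DMb2 overlapped one another. The remaining 3 genes were the lowest. Ciita stood at 116, 276, 198, 151, 198.5 and 157 CPM, H2-Ob at 148, 167, 114, 142, 113 and 101 CPM, and H2-Oa at 280.1, 88.3, 114, 156, 64.45 and 66.8 CPM. Their ranges overlapped, so no order among Ciita, H2-Ob and H2-Oa is given.

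The share of Langerhans-like cells with at least 1 UMI was 99.9% for Cd74, 99.6% for H2-Aa and for H2-Ab1, 98.5% for H2-DMa, 90.8% for H2-DMb1, 78.7% for H2-DMb2 and 73.8% for H2-Eb1. It was 47.7% for Ciita, 38.8% for H2-Ob and 33.4% for H2-Oa, at a median depth of 4095 UMIs. These cells with no UMI cannot be told apart from cells in which a low transcript was missed. All but 6 of the 748 cells drew at least 3% of their UMIs from the 10 genes.

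**Figure D1:**
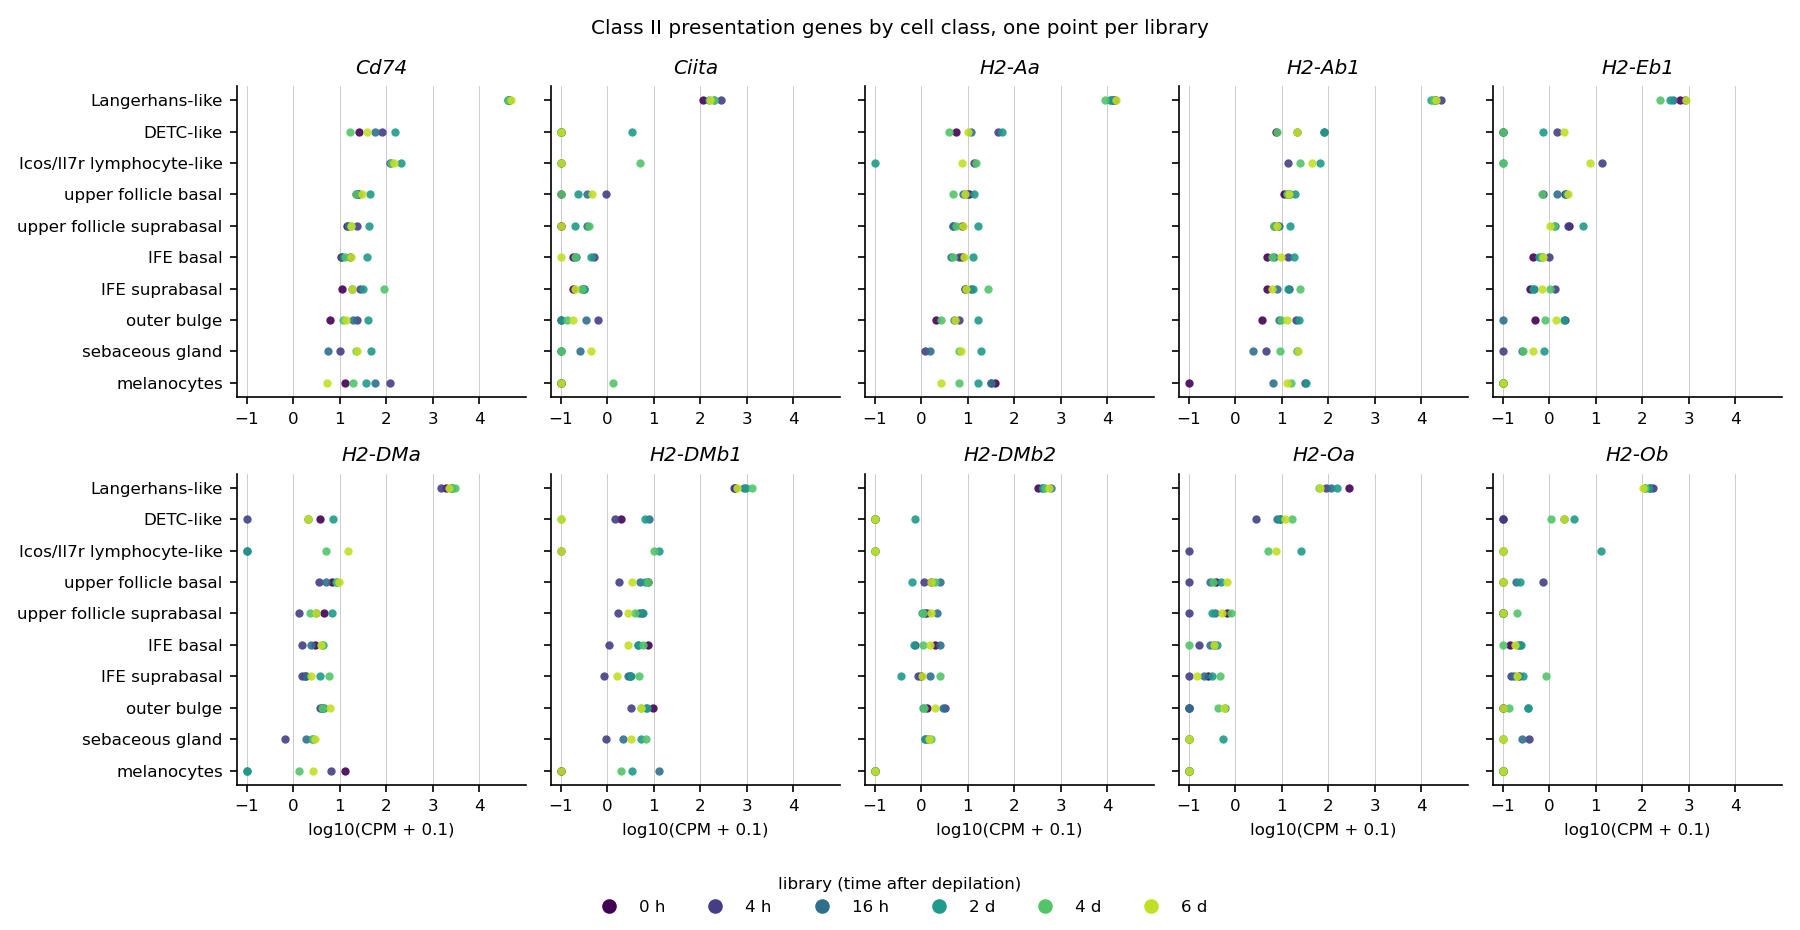
Level of each of the 10 genes as log10(CPM + 0.1) (x axis) in the cell classes (y axis), with a point per library coloured by time after depilation and libraries with under 20 cells of a class left out. For all 10 genes the 6 points of Langerhans-like cells lie to the right of the points of every keratinocyte class.

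Over the 6 time points no member passed the test in Langerhans-like cells. The test fitted a smooth curve of time to the summed counts with edgeR's quasi-likelihood test, and its 6 libraries leave few degrees of freedom. None of the 10 genes was called after Benjamini-Hochberg adjustment (adjusted p = 0.99975 for each), none had an unadjusted p under 0.05, and DESeq2's likelihood ratio test called none. Among all 5928 genes tested, 0% were called and 2.61% had an unadjusted p under 0.05. The linear part of the fitted curve, taken over the span from 0 h to 6 d, ranged from -1.43 log2 for H2-Oa to 0.46 for H2-DMb2. It leaves out the curved part and is not the difference between the end points. Without the 0 h library, which held only 39 Langerhans-like cells, H2-Eb1 was called (adjusted p = 0.00202, edgeR) over its levels of 819 CPM at 4 h, 245 CPM at 4 d and 857 CPM at 6 d. In that fit 7.21% of 5908 genes were called.

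Of the 10 genes, 4 shared their lowest and highest libraries in pairs, given here as a description over 6 libraries that share each library's depth and cells. H2-Aa and H2-Eb1 were both lowest at 4 d and highest at 6 d (r = 0.988). H2-DMa and H2-DMb1 were both lowest at 4 h and highest at 4 d (r = 0.908). H2-DMb1 and H2-Eb1 ran opposite to each other (r = -0.957). The langerin gene Cd207 stood at 9761, 7049, 3459, 3518, 3153 and 12250 CPM, low and high in the same libraries as H2-Eb1 (r = 0.869). Cd83, whose product slows the removal of class II from the surface, stood at 935, 333, 183, 566, 124 and 1006 CPM. The ratio of the highest to the lowest library was 1.19 for Cd74, 1.75 for H2-Aa, 1.62 for H2-Ab1, 2.42 for H2-DMb1 and 3.50 for H2-Eb1. The H2-Oa value of 280.1 CPM at 0 h rested on 53 UMIs in 25 of 39 cells. It was 288 CPM without the 2 of those cells that held 3 or more T cell UMIs.

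**Figure D2:**
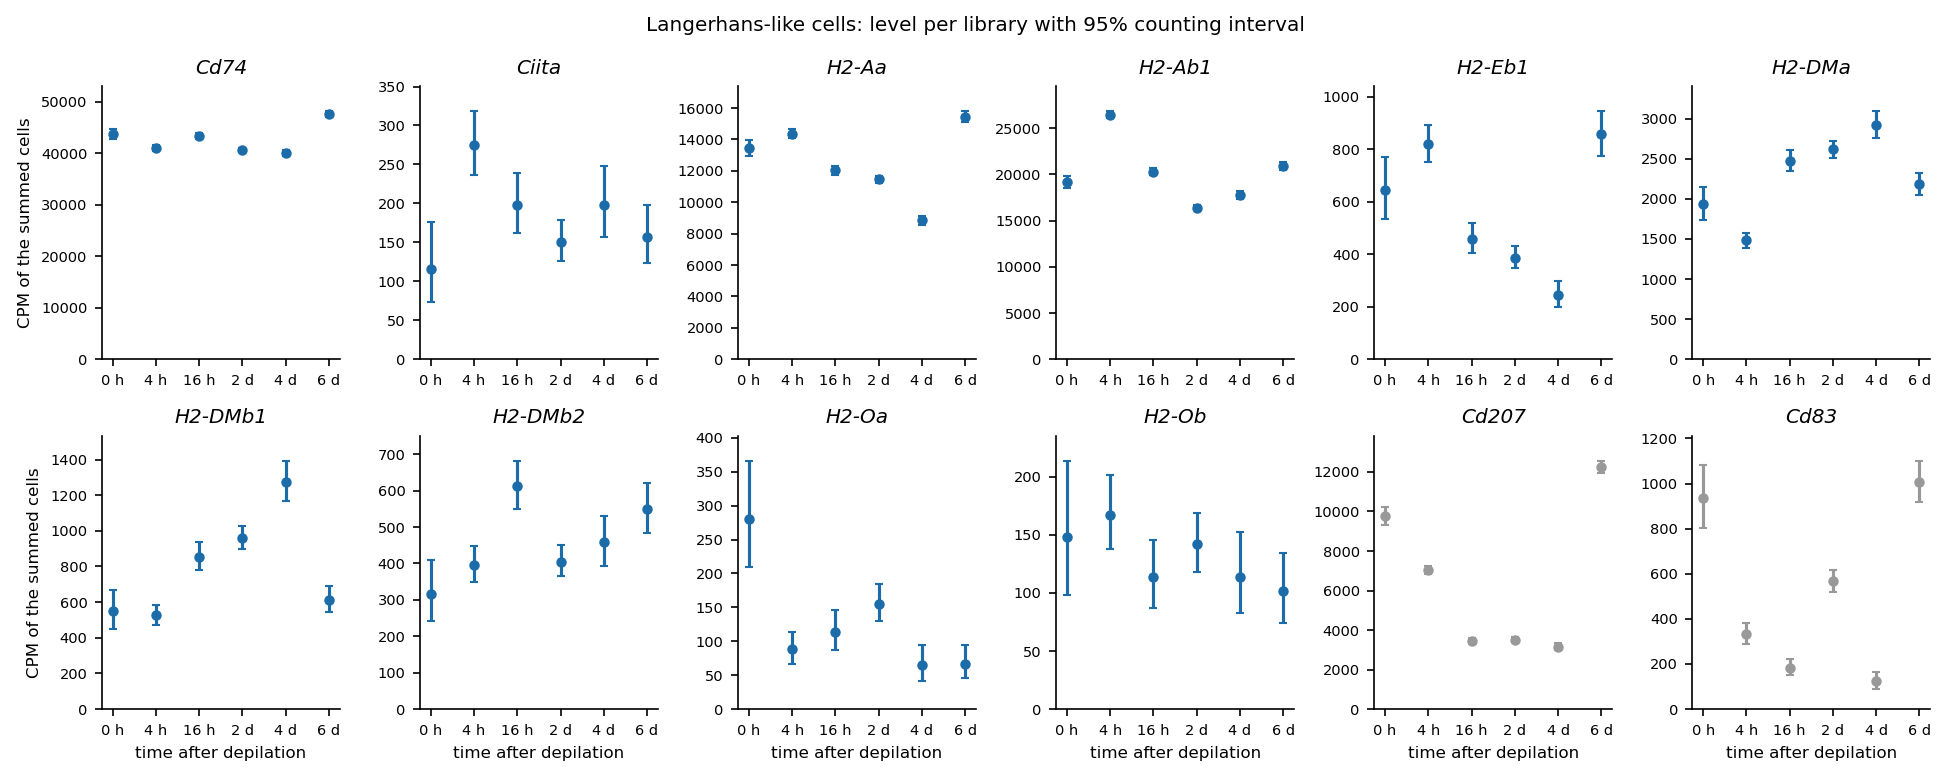
Level (CPM of the summed cells, y axis from 0) of the 10 genes, and of Cd207 and Cd83 in grey, in Langerhans-like cells at each time after depilation (x axis), with 95% exact Poisson intervals. H2-Aa, H2-Eb1 and Cd207 are highest at 6 d, while H2-DMa and H2-DMb1 are highest at 4 d.

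A cluster of 28 cells resembled mature dendritic cells, with the homing receptor Ccr7 at 2294 CPM against 2.24 CPM in Langerhans-like cells. Ccr7 is in the marker list that named the cluster. It held the I-A genes and Cd74, with less H2-DMa and H2-DMb1. Cd74 stood at 31896 CPM, H2-Ab1 at 14570 CPM and H2-Aa at 9504 CPM over all its cells, against 42356, 20203 and 12556 CPM in Langerhans-like cells. H2-DMa stood at 352 CPM from 42 UMIs, against 2284 CPM, and H2-DMb1 at 117 CPM from 14 UMIs, against 814 CPM. H2-DMb2 differed less, at 184 CPM from 22 UMIs against 462 CPM. For every UMI of H2-Aa there were 0.0370 UMIs of H2-DMa (95% interval 0.0265 to 0.0503), against 0.182 (0.177 to 0.187) in Langerhans-like cells. H2-Eb1 stood at 653 CPM against 558 CPM. Of the 28 cells 8 came from 4 h, 3 from 16 h, 15 from 2 d, 1 from 4 d and 1 from 6 d, so no test over libraries was made. All intervals given here cover counting error only.

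Against keratinocytes, Langerhans-like cells were higher in all 10 genes by edgeR's quasi-likelihood test with the library as a block. Of all 14758 genes tested, 17.4% were called higher. Ciita, H2-Oa and H2-Ob reached at most 0.348, 0.321 and 0.149 CPM in a keratinocyte library. They passed the filter on low counts only through the Langerhans-like sums and so had to be higher there. The count of 10 is therefore no support for a difference of the list. The log2 fold change was 10.86 ± 0.29 (SE, n = 6 libraries per class) for Cd74, 10.74 ± 0.29 for H2-Ab1, 10.39 ± 0.22 for H2-Aa and 10.16 ± 0.28 for H2-Ob. It was 9.82 ± 0.28 for Ciita, 9.11 ± 0.21 for H2-DMa, 8.93 ± 0.30 for H2-Eb1, 8.83 ± 0.42 for H2-Oa and 8.34 ± 0.24 for H2-DMb2. It was smallest for H2-DMb1, at 7.53 ± 0.29. Leaving out Ciita, H2-Oa and H2-Ob, the Benjamini-Hochberg adjusted p-values of the edgeR test ran up to 2.2e-10, for Cd74. The median change over all genes in this contrast was -0.45. Against T cell-like cells all 10 genes were higher as well, where 24.8% of 7779 genes were called higher. The log2 fold changes ran from 3.76 ± 0.30 for H2-Oa to 9.81 ± 0.31 for H2-DMb2. H2-Eb1, H2-DMa, H2-DMb1, H2-DMb2, Ciita, H2-Oa and H2-Ob rested on 2 to 52 UMIs each in T cell-like cells. They passed the filter only through the Langerhans-like sums, so this count of 10 is likewise no support. With no filter on low counts all 10 stayed called in both contrasts. The p-values of these contrasts measure the spread of the class difference over the 6 libraries, which also differ in time.

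Outside the presenting cells, low counts of Cd74, H2-Aa and H2-Ab1 were found in T cell-like cells, keratinocytes, sebaceous gland cells, melanocytes and dermal cells. RNA free in the suspension is a known source of such counts. Counts were not low in a cluster of 63 immune cells with keratinocyte genes (Cd74 7968, H2-Ab1 3747.5 and H2-Aa 2621 CPM), whose nature was not tested. Nor were they in the immune cluster led by cell cycle genes, described at the end (Cd74 3294 CPM). Langerhans-like cells, 0.598 to 2.68% of the cells of a library, held 82.6 to 92.1% of its Cd74 UMIs. In keratinocytes Cd74 stood at 12.1, 20.8, 15.4, 36.5, 20.2 and 18.7 CPM in time order. Its highest value fell in the 2 d library, which also had the largest share of Langerhans-like cells (2.68%). Sebaceous gland cells had 20.7 CPM of Cd74, dermal papilla and fibroblast cells 19.8 CPM and melanocytes 26.9 CPM over all libraries. At an equal depth of 1000 UMIs per cell, 2.00% (95% exact interval 1.87 to 2.13%) of keratinocytes had a Cd74 UMI, 2.20% of sebaceous gland cells, 1.92% of dermal papilla and fibroblast cells and 4.29% (2.77 to 6.32%) of melanocytes. The keratinocyte share lay between the lowest and the highest of the other 3. Whether those 3 make the gene themselves was not tested, and Cd74 had only 15 UMIs in dermal papilla and fibroblast cells and 72 in melanocytes. The part of free RNA in the keratinocyte counts was not tested. Before thinning, at a median of 8014 UMIs, the share of keratinocytes was 11.8%. The 108 keratinocytes below 1000 UMIs were left out.

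T cell-like cells exceeded keratinocytes in 6 of the 10 genes, where 23.5% of 15073 genes were called higher by edgeR. H2-Oa, H2-Ob and Ciita passed the filter on low counts only through the T cell-like sums and so had to be higher there. The count of 6 is therefore no support for a difference of the list, nor are the p-values of these 3 genes with the filter. With no filter on low counts the log2 fold changes were 5.07 for H2-Oa, 3.40 for H2-Ob and 2.46 for Ciita (adjusted p = 4.6e-09, 0.00259 and 0.0241, edgeR). H2-Oa stood at 9.01, 2.47, 7.17, 9.96, 14.6 and 10.9 CPM in T cell-like cells from 0 h to 6 d and at 0.229, 0.0331, 0.147, 0.283, 0.321 and 0.299 CPM in keratinocytes. The groups did not overlap, and with the filter the log2 fold change was 5.15 ± 0.44 (SE, n = 6 libraries per class). H2-Ob rested on 9 UMIs in T cell-like cells, at 1.66 CPM, and 39 UMIs in keratinocytes, at 0.0928 CPM (log2 fold change with the filter 3.47 ± 0.83). Without the 2 d library, H2-Ob was no longer called (adjusted p = 0.0555, edgeR).

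The H2-Oa counts of T cell-like cells were out of proportion to the rest of the pathway. For every UMI of H2-Aa there were 0.371 UMIs of H2-Oa (95% interval 0.265 to 0.514), against 0.00933 (0.00840 to 0.0103) in Langerhans-like cells. At 1000 UMIs per cell 1.27% (0.857 to 1.80%) of T cell-like cells had an H2-Oa UMI, against 0.0248% of keratinocytes, and without thinning 2.06% had one at a median of 2146.5 UMIs. No melanocyte of 559 and no sebaceous gland cell of 1770 had one at that depth, which allows shares of up to 0.537% and 0.169%. The 52 UMIs came from 2426 cells, 48 of them in DETC-like cells.

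Cd74, H2-Ab1, H2-Aa and Ciita were also called higher in T cell-like cells, by 1.48 ± 0.21, 1.29 ± 0.28, 0.83 ± 0.33 and 2.53 ± 0.83 on the log2 scale. Ciita had to be higher there because of the filter, as given above. Cd74 stood at 25.2, 85.3, 89.6, 153, 34.8 and 62.1 CPM, highest at 2 d as in keratinocytes. For every UMI of H2-Aa there were 3.30 UMIs of Cd74 (2.73 to 4.02) and 1.67 of H2-Ab1 (1.35 to 2.08). The matching ratios in Langerhans-like cells were 3.37 and 1.61, inside both intervals. At 1000 UMIs per cell 6.38% (5.43 to 7.44%) of T cell-like cells had a Cd74 UMI, against the 4.29% of melanocytes. How much of these counts was free RNA was not tested. H2-Aa was no longer called with DESeq2 (adjusted p = 0.12) and Ciita, with 8 UMIs in all, was no longer called without the 2 d library (adjusted p = 0.165, edgeR).

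Lymphocytes led by Icos and Il7r carried Cd74 with little H2-Aa. Over all libraries Cd74 stood at 168 CPM from 92 UMIs and H2-Aa at 11.0 CPM from 6 UMIs. This was 15.3 UMIs of Cd74 for every UMI of H2-Aa (95% interval 6.78 to 42.9), above the 3.37 (3.34 to 3.41) of Langerhans-like cells. H2-Ab1, the other I-A gene, was not as low, at 38.4 CPM from 21 UMIs. In DETC-like cells H2-Ab1 stood at 43.8 CPM and H2-Aa at 27.6 CPM. The 212 cells gave no Cd74 UMI in 5 cells at 0 h, then 9, 21, 16, 26 and 20 UMIs in 31, 18, 25, 87 and 46 cells. At 1000 UMIs per cell 11.4% (7.46 to 16.5%) had a Cd74 UMI, against 5.89% (4.93 to 6.97%) of DETC-like cells. Ifng, the inducer of Ciita in many cell types, was found almost entirely in 77 immune cells of a cluster left unnamed, with 61 of 66 UMIs.

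**Figure D3:**
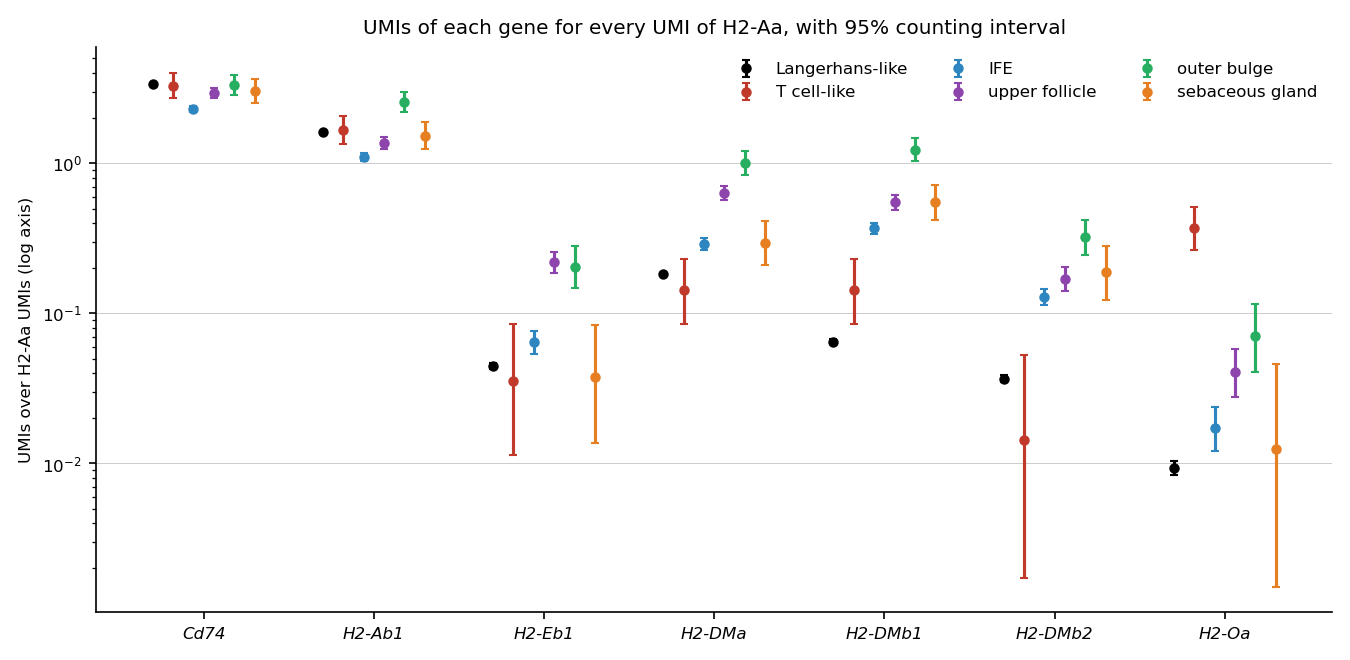
UMIs of each gene for every UMI of H2-Aa (y axis, log scale) in 6 cell classes, pooled over libraries, with 95% counting intervals. H2-Oa of T cell-like cells, at 0.371, and the DM genes of follicle classes lie above the Langerhans-like values, while H2-Ab1 runs from 1.1 in the IFE to 2.54 in the outer bulge.

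In keratinocytes the DM genes did not follow the I-A genes. H2-DMb1 had 1641 UMIs and H2-DMa 1519 UMIs in keratinocytes, against 3414 of H2-Aa. Keratinocytes held 37.0% of all H2-DMb1 UMIs and 16.8% of those of H2-DMa, but 5.71% of those of Cd74. For every UMI of H2-Aa there were 0.368 UMIs of H2-DMb1 in the IFE (95% interval 0.339 to 0.40), 0.551 in the upper follicle (0.489 to 0.619), 1.23 in the outer bulge (1.03 to 1.47) and 0.553 in sebaceous gland cells (0.422 to 0.723). Within the IFE the ratio was 0.575 (0.514 to 0.642) in basal and 0.224 (0.196 to 0.255) in suprabasal cells, and basal cells of the upper follicle, at 0.604 (0.516 to 0.705), overlapped basal IFE. The value in Langerhans-like cells was 0.0648 (0.0622 to 0.0675). For H2-DMa the ratio was 0.288 in the IFE, 0.636 in the upper follicle and 1.00 in the outer bulge, against 0.182 in Langerhans-like cells. It was 0.389 in basal IFE, 0.218 in suprabasal IFE and 0.816 in basal upper follicle cells. H2-DMb2 stood at 0.160 (0.146 to 0.175) in all keratinocytes against 0.0368 (0.0349 to 0.0388). The ratios depend on H2-Aa as the divisor. For H2-DMa the outer bulge had 240 UMIs for 608 of H2-Ab1 and the upper follicle 515 for 1110, which reverses their order. For H2-DMb1 (294 and 446 UMIs) the order stays. Libraries were pooled, and 3786 of 7770 outer bulge cells but 2133 of 21999 IFE cells came from 4 d. In the suprabasal IFE 37 cells held 2333 of the 5269 UMIs of Cd74, H2-Aa, H2-Ab1 and H2-Eb1.

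Over time H2-DMb1 in keratinocytes stood at 5.60, 1.09, 4.09, 4.29, 5.28 and 2.83 CPM, and H2-DMa at 3.01, 1.64, 2.68, 5.08, 4.54 and 4.71 CPM. Both were lowest at 4 h, as they were in Langerhans-like cells. H2-Aa stood at 7.90, 8.08, 6.02, 13.5, 5.61 and 7.89 CPM and was not low at 4 h. The curve over time was not called for any member in IFE, upper follicle or outer bulge keratinocytes, with edgeR's adjusted p at 0.647 or above. In the IFE 8 members could be tested, in the upper follicle 7 and in the outer bulge 6. Of all genes 0% were called over time in the IFE and in the upper follicle and 1.73% in the outer bulge, and 1.85%, 3.21% and 11.2% had an unadjusted p under 0.05. No member did in these classes. None of 3 testable members was called in T cell-like cells, where 0% of 7287 genes were called. Cd74 alone had an unadjusted p under 0.05 there (2.11% of genes did). With a single library left out, Cd74 and H2-Aa were called in the outer bulge without 0 h (adjusted p = 0.00406 and 0.0101, edgeR) and without 4 h (0.0115 and 0.0433). In those fits 18.0% and 7.24% of all genes were called. In T cell-like cells Cd74 and H2-Ab1 were called without the 0 h, 4 h or 6 d library, with adjusted p from 0.00222 to 0.0425 (edgeR), and H2-Aa without 0 h or 6 d (0.00137 and 0.0189). Of all genes 6.38%, 1.05% and 2.96% were called there without 0 h, 4 h and 6 d.

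Of 7 members tested, H2-Eb1 and H2-DMa were higher in the upper follicle than in the IFE, where 18.9% of 13557 genes were called higher. The count of members was near that share of all genes and is not a result about the members. H2-Eb1 stood at 2.24, 1.26, 1.31, 3.90, 0.925 and 1.68 CPM in the upper follicle and at 0.314, 1.02, 0.490, 0.420, 0.719 and 0.630 CPM in the IFE (log2 fold change 1.51 ± 0.41, adjusted p = 0.0183 with edgeR). It was higher in each library, though the groups overlapped between libraries. H2-DMa stood at 5.88, 2.66, 4.24, 7.45, 5.06 and 6.16 CPM in the upper follicle and at 2.22, 1.42, 2.04, 3.99, 4.71 and 2.93 CPM in the IFE (0.76 ± 0.18, adjusted p = 0.00907 with edgeR), again higher in each library. Cd74 (0.07 ± 0.23), H2-Aa (-0.29 ± 0.19), H2-Ab1 (0.15 ± 0.19), H2-DMb1 (0.33 ± 0.13) and H2-DMb2 (0.19 ± 0.19) were not called. H2-Eb1 was not called without the 2 d library (adjusted p = 0.0582, edgeR), and H2-DMa was not called without the library block (adjusted p = 0.17, edgeR).

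Some keratinocytes also held RNA of Langerhans cells, defined as any UMI of Cd207, Tyrobp, Fcer1g, Ltc4s or Csf1r. With these cells left out of both classes, 5 members were called higher in the upper follicle, where 18.5% of genes were. The log2 fold change was 0.72 ± 0.12 for Cd74 (adjusted p = 0.00191, edgeR), 0.59 ± 0.17 for H2-Ab1 (0.0233), 1.65 ± 0.40 for H2-Eb1 (0.0110), 0.99 ± 0.15 for H2-DMa (8.4e-04) and 0.41 ± 0.13 for H2-DMb1 (0.0334). H2-Aa stood at 0.29 ± 0.10 (adjusted p = 0.0520, edgeR).

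The share of cells pointed the same way for Cd74. At 1000 UMIs per cell 1.55, 2.88, 1.94, 4.32, 1.72 and 2.66% of upper follicle keratinocytes had a Cd74 UMI from 0 h to 6 d, against 1.17, 1.80, 1.59, 3.45, 1.23 and 1.33% in the IFE. The mean difference was 0.748 ± 0.406 percentage points (SD, n = 6 libraries), higher in the upper follicle in 6 of 6 libraries. The exact sign-flip permutation test gave p = 0.03125, two-sided, the smallest it can give with 6 pairs. The test left out 62 IFE and 26 upper follicle cells below 1000 UMIs. Without thinning the difference was 1.14 percentage points and p = 0.0625 (exact permutation test). Pooled over libraries the shares were 2.5% and 1.82%, neither above the 4.29% of melanocytes.

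**Figure D4:**
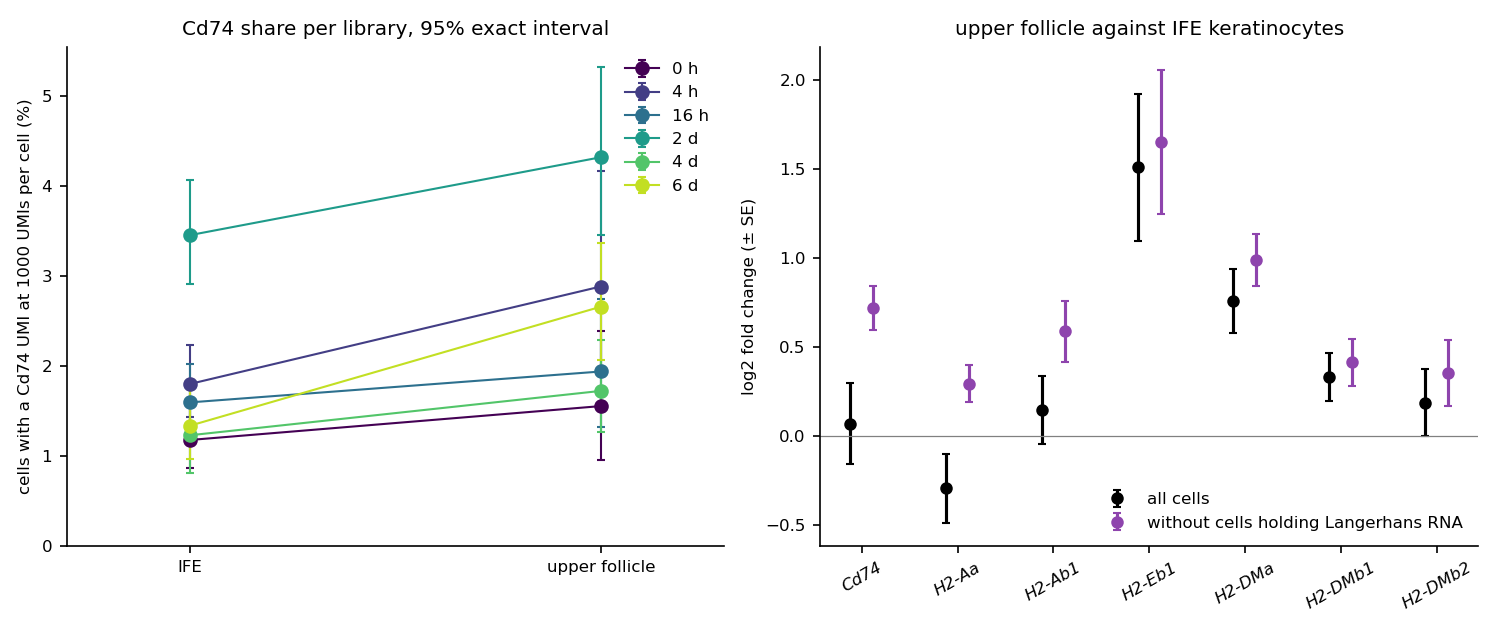
Left, share of cells with a Cd74 UMI at 1000 UMIs per cell (y axis, %) in IFE and upper follicle keratinocytes, a line per library, with 95% exact intervals. Right, log2 fold change of 7 genes, upper follicle over IFE, ± SE over 6 libraries, for all cells (black) and without cells holding Langerhans RNA (purple), where Cd74 moves from 0.07 to 0.72.

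Counting Cd74, H2-Aa, H2-Ab1 and H2-Eb1 together, 79.1% of keratinocytes had no UMI, 19.1% had 1 to 2, 1.60% had 3 to 9, and 117 cells (0.263%, 95% exact interval 0.218 to 0.316%) had 10 or more. Those 117 cells held 23.4% of the class II UMIs of all keratinocytes, while the cells with 1 to 2 UMIs held 59.0% and those with 3 to 9 held 17.6%. The share of the cells with 10 or more ran from 9.43% at 0 h to 41.2% at 4 d. The limit of 10 was chosen after the values were seen, so what follows on these cells is a description. Langerhans RNA was present in 60 of the 117, against 3.23% of the keratinocytes with no class II UMI.

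The cells with 10 or more UMIs differed by where they came from. Of 37 in the suprabasal IFE 30 held Langerhans RNA, and of 21 in the basal IFE 14 did. Of 30 in the basal upper follicle 2 did, and of 19 in the suprabasal upper follicle 7 did. In the 58 IFE cells there were 10.0 Langerhans UMIs per 100 class II UMIs (8.88 to 11.3), below the 14.0 of Langerhans-like cells themselves. Cd207 had 108 UMIs there, where the Langerhans-like ratio gives 210.5. In the 30 basal cells of the upper follicle there were 0.505 (0.104 to 1.48), or 3 UMIs where the Langerhans-like ratio gives 82.9. Cd207 had 0 UMIs there, where that ratio gives 46.2.

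**Figure D5:**
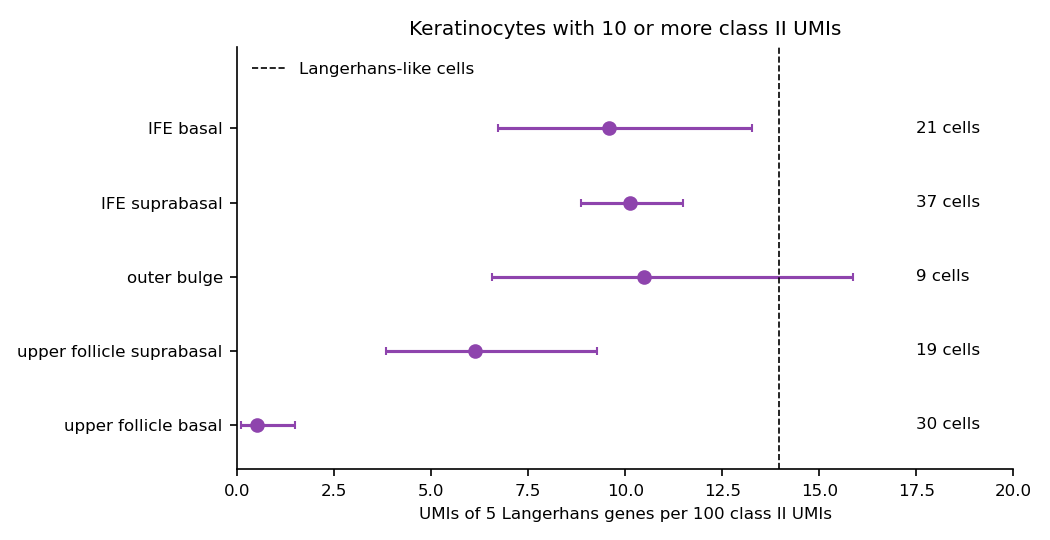
UMIs of 5 Langerhans genes per 100 class II UMIs (x axis) in keratinocytes with 10 or more class II UMIs, by class (y axis), with 95% counting intervals and the number of cells at the right. The dashed line is the value of Langerhans-like cells, 14.0, and the 30 basal cells of the upper follicle lie at 0.505.

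The 28 basal upper follicle cells with class II UMIs and no Langerhans RNA were keratinocytes by their keratins. All 28 carried Krt5 and Krt14, basal keratin genes, with 920 and 1868 UMIs. Both were lower than in the 4821 basal upper follicle cells with no class II UMI. Krt5 stood at 3516 against 4440 CPM and Krt14 at 7139 against 11695 CPM. They held 365 UMIs of Cd74 in 28 cells, 132 of H2-Ab1 in 28 cells and 70 of H2-Aa in 23 cells, a median of 16 class II UMIs and at most 61 per cell. Ptprc, the pan-leukocyte gene, and Ctss, the protease that trims the invariant chain, had 0 UMIs, where the ratio to class II of Langerhans-like cells gives 1.91 and 6.73. Their median depth was 8658 UMIs, against 7226.5 in all basal upper follicle cells, and their median doublet score was 0.0242 against 0.0282. The cells with the highest doublet scores had been removed before.

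DM, which was not used to choose these cells, was present in them. H2-DMa had 14 UMIs in 11 of the 28 cells, 53.5 CPM against 5.93 CPM in the 4821 basal upper follicle cells with no class II UMI, a 9.02-fold difference. H2-DMb1 had 8 UMIs (30.6 against 5.16 CPM) and H2-DMb2 5 UMIs (19.1 against 1.52 CPM). The ratio to class II of Langerhans-like cells gives 17.3, 6.16 and 3.50 UMIs of these 3 genes. In all, 16 of the 28 had a DM UMI. Ciita, H2-Oa and H2-Ob had 0 UMIs, where the Langerhans-like ratio gives 1.44, 0.887 and 1.01, so a similar ratio was not detectable at this depth. The cells came from 5 of the 6 libraries, with 3 of 943 basal upper follicle cells at 0 h, 0 of 660 at 4 h, 12 of 958 at 16 h, 2 of 1026 at 2 d, 5 of 1308 at 4 d and 6 of 1333 at 6 d. The 16 h library alone gave 12 of the 28.

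Within the IFE, 2 members were called between suprabasal and basal keratinocytes. H2-Aa was called higher in suprabasal cells (log2 fold change 0.87 ± 0.28, adjusted p = 0.0240 with edgeR) and H2-DMb1 lower (-0.57 ± 0.15, adjusted p = 0.00897 with edgeR), of 7 members tested. The background was high, with 28.8% of 13273 genes called higher and 32.2% lower. H2-Aa was not called without the 4 h or the 16 h library (adjusted p = 0.0678 and 0.0733, edgeR). Its difference was 0.14 (adjusted p = 0.396, edgeR) without the cells holding Langerhans RNA, which included 30 of the 37 suprabasal cells rich in class II. H2-DMa was then called lower in suprabasal cells, at -0.66 (adjusted p = 0.0022, edgeR).

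Genes that serve the pathway around class II were read from a list of 39. In Langerhans-like cells against keratinocytes 22 of 31 tested were called, 14 higher and 8 lower, where 51.1% of all genes were called and 33.6% were lower. The higher ones included genes of costimulation and surface turnover, with Cd86 at 10.82 on the log2 scale, March1, a ubiquitin ligase of class II, at 10.39, Cd40 at 8.51 and Cd83 at 7.98. Of endosomal proteolysis Ctss was higher at 10.97, Cst3, a cathepsin inhibitor, at 3.41, Ifi30, a thiol reductase, at 2.71, and Ctsh at 2.16. Ctsl, which has the part of Ctss in thymic epithelium, was lower at -3.42, Ctsd at -3.07 and Ctsb at -0.44. Jak2 (1.95), Nfya (1.89), Ifngr2 (1.85), Cd44 (1.02), Rfx5 (0.90) and Sppl2a (0.82) were higher, and Ifngr1 (-3.21), Mif (-2.28), Nfyb (-1.77), Nfyc (-0.70) and Jak1 (-0.44) lower. The pair of interferon γ receptor genes thus differed in opposite directions, and so did the NF-Y subunit genes. Which of the higher genes passed the filter on low counts only through the Langerhans-like sums was not tested.

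Against T cell-like cells, a contrast in which 51.3% of all genes were called, 20 of 28 tested were called in Langerhans-like cells, 14 higher, among them March1 at 8.28, Ctsh at 7.42 and Ctss at 5.99, and 6 lower, among them Ifngr1 at -4.65 and Socs1 at -2.75. T cell-like cells against keratinocytes gave 15 higher and 8 lower of 32, where 58.3% of all genes were called. Among the higher were Cd4 at 6.98, Cd80 at 4.99 and Lag3, a class II receptor, at 4.37. Over time in T cell-like cells, 0 of 3 costimulation genes such as Cd80 passed the filter on low counts. Of 4 partners of class II or of the invariant chain, such as Cd4 and Lag3, 2 did. A gene that passes only through the sums where it is high had to be higher there, so these changes are no support. In the upper follicle against the IFE only Ifngr1 (log2 fold change -1.50 ± 0.18, adjusted p = 2.75e-04 with edgeR) and Jak1 (-0.44 ± 0.10) were called of 28, both lower, although 40.4% of all genes were called. Suprabasal against basal IFE gave 10 higher and 11 lower of 28, where 61.0% of all genes were called, among them March8 at 2.24, Irf1 at -1.21 and Cd83 at -1.50. No gene of the list was called over time in any class tested.

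The genes whose levels were most like those of Cd74 over 71 class and library sums, of 8474 genes, were Napsa (r = 0.940), Cd86 (0.937), Tyrobp (0.935), Alox5ap (0.931) and C1qa (0.927). Among the members, H2-Ab1 (0.954) and H2-Aa (0.947) lay above all of these and H2-DMb2 lay lowest (0.804). Over the 6 sums of Langerhans-like cells alone, of 7084 genes, they were Ttc19 (0.991), Ccnl2 (0.962), Smim3 (0.955), Pitpnb (0.954) and Pde8a (0.952). Points of the first set share the contrast between presenting and other cells, and those of the second share 6 libraries, so both are descriptions.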

How the data were processed

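Dorsal skin of wildtype FVB males was profiled by 10x 3′ single-cell RNA-seq, with 1 library per time point. The authors aligned reads to mm10 with Cell Ranger 6.1.2 and deposited raw UMI counts per gene and barcode. Barcodes with 500 to 7000 genes and at most 10% mitochondrial UMIs were kept (55177 of 61031), and 4675 high-scoring doublets were removed at 0.8% per 1000 cells. Libraries shared 7 to 47 barcodes in pairs. Cells were clustered with Seurat 5.3.0 (resolution 0.2, immune cells 0.4) without the 10 genes, and named by marker lists. Counts were summed per class and library, for libraries with at least 20 cells of the class, and tested over all genes with edgeR 4.0.16 (quasi-likelihood, TMM, filterByExpr), adjusted by Benjamini-Hochberg at 0.05. Time entered as a spline with 3 degrees of freedom, and class contrasts had the library as block. The fits were tested on simulated data. DESeq2 1.42.0 was an alternative. Shares of cells were compared after thinning to 1000 UMIs, with 95% exact intervals, and a count of 0 was given the limit of 3 counts.

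All 10 genes were named in every class. Of 39 further genes of the pathway, all those called were named for Langerhans-like cells against keratinocytes and for the upper follicle against the IFE. In the other class contrasts only some of those called were named, and over time none was called. The 5 genes most like Cd74 were named as well. The members and lists were chosen with earlier results of these data known. The rare class II keratinocytes and their leading genes were defined after their values were seen.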

Additional observations from a re-analysis of the deposited data

How the results depend on the processing

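The direction of called results did not reverse in the alternatives tried (DESeq2 and its size factors, no filter on low counts, no library block, more doublets removed, cells with Langerhans RNA left out, each library left out), and all 10 genes stayed called in Langerhans-like cells against keratinocytes and against T cell-like cells. For the upper follicle against the IFE the count of 2 members called became 1 without the library block and 5 without keratinocytes holding Langerhans RNA, and was 1 to 3 with a library left out. For suprabasal against basal IFE the count of 2 became 0 without the library block, 1 without the filter on low counts and 1 when the number of doublets removed was doubled, and was 1 to 3 with a library left out. H2-DMb1 was the gene called where the count was 1. The count over time was 0 to 1 in Langerhans-like cells, 0 to 3 in T cell-like cells and 0 to 2 in the outer bulge with a library left out. For T cell-like cells against keratinocytes the count of 6 was 4 without the library block, where H2-DMb2 was lower at -1.99. The difference in Cd74 share was 1.14 percentage points without thinning (exact permutation p = 0.0625), 0.110 at a minimum of 2 UMIs (exact permutation p = 0.156) and 0.633 to 0.829 with a library left out, where 5 pairs cannot give p below 0.0625. The causes were not tested. Among single genes 953 alternatives kept their call, 24 gained it and 18 lost it. Class contrasts had the library as a block, which pairs the classes of a library. For comparisons between time points no paired analysis was possible because each time point is a single library. Members with few UMIs outside Langerhans-like cells (Ciita, H2-Oa, H2-Ob) are limited by depth, and time cannot be told apart from the library.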

Other observations

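The 28 basal upper follicle cells with 10 or more class II UMIs and no Langerhans RNA were compared with the 4821 basal upper follicle cells that had no class II UMI, as a description with no test. The leading genes were taken, after their values were seen, from those found in at least 30% of the 28 cells, by the ratio of CPM after adding 5. Avpr1a, a vasopressin receptor gene, had 20 UMIs in 10 of the 28 cells, at 76.4 CPM against 6.57 CPM. Bst1 stood at 45.9 against 4.73 CPM, Chil1 at 138 against 21.4 CPM and Cryab, a small heat shock protein gene, at 84.1 against 17.0 CPM. Tmem176b was found in 89.3% of the 28 cells and in 32.9% of the others, at 271 against 66.2 CPM. Psmb10, a subunit of the immunoproteasome, stood at 138 against 35.5 CPM. S100a4 stood at 176 against 43.5 CPM, with 46 UMIs where the Langerhans-like ratio gives 26.6, and Alox12e at 111 against 27.7 CPM.

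A cluster of 176 immune cells led by cell cycle genes, of which 128 came from the 4 d library, had 3294 CPM of Cd74 in sum. Its summed Cd74 differed between libraries, with 15891 CPM in the 26 cells of 2 d (2053 of the 2473 UMIs), 35.0 CPM in the 128 cells of 4 d (18 UMIs) and 4362 CPM in the 19 cells of 6 d (402 UMIs). Its make-up differed as well, since some of its cells lay in the Langerhans cluster of the whole skin. Adding these cells raised the Langerhans-like cells from 232 to 241 at 2 d and from 108 to 110 at 6 d. At 4 d the number stayed at 99. A change of level within a cell type was not tested. At 1000 UMIs per cell 10.8% of its cells had a Cd74 UMI, against 99.7% of Langerhans-like cells. Among 44 lymphocytes of a cluster led by Ctla4 and Foxp3, Cd74 had 34 UMIs, H2-Ab1 4 and H2-Aa 1, at 344, 40.4 and 10.1 CPM.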
